A study of Mus musculus with 6 samples.

Results

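Transcripts of B cells were followed in 9 genes: the antigen receptor signaling subunits Cd79a and Cd79b, the surface proteins Cd22 and Ms4a1, the transcription factors Pax5 and Ebf1, and the immunoglobulin constant regions Ighm, Ighd and Igkc. They were chosen by name as established B cell genes, with earlier results of these data known. All 9 were among the 16656 genes that passed a filter on low counts and were tested. The cells were CD11b+Gr1+ splenocytes, a myeloid gate, purified by flow cytometry from tumor-bearing mice. B cell transcripts are therefore not those that define the sort.

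The comparison asked how loss of Rpl22, a protein of the large ribosomal subunit, alters gene expression in Mll-AF9 leukemia. All mice carried the Mll-AF9 knockin allele, which encodes a fusion protein known to cause acute myeloid leukemia. The control group was Rpl22+/+ (3 libraries) and the other was Rpl22-/- (3 libraries), in which Rpl22 is deleted in the germline and so in lymphoid as well as leukemic cells. Per the study's methods the Rpl22 strain was on the C57BL/6 background, and the mice used were young adults. The age of the leukemic mice sampled and any treatment are not given in the sources used here, and the study describes the leukemia explants by 1 mouse identifier for each genotype. P-values here measure the spread between libraries, which may be technical. If each genotype is 1 mouse, they do not cover the spread between mice, and genotype cannot be told apart from mouse.

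B cell precursors rearrange variable segments, and splicing of the transcript joins these to a constant region. Naive B cells carry IgM and IgD on the surface, from Ighm and Ighd transcripts that end in membrane exons, held there by Cd79a and Cd79b. Pax5 and Ebf1 set up and keep the B cell program. On the way to an antibody-secreting plasma cell the program is turned down, the heavy chain transcript is ended early to give the secreted form, and many cells switch from Ighm to a downstream Ighg, Igha or Ighe constant region. Light chains are either kappa (Igkc) or lambda (Iglc1, Iglc2, Iglc3).

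The Ighm gene (ENSMUSG00000076617, chromosome 12, 113382178 to 113386350, minus strand, GRCm39) gives both heavy chain forms, and its exonic 3′ coding ends are shown because they separate these forms. Ighm-201, the secreted form, has 4 exons and 1493 bases in GENCODE vM21, and Ighm-202, the membrane form, has 6 exons and 1698 bases. The first 1305 bases are the same in both. The coding sequences that follow, 62 and 125 bases with the stop codon in capitals, were:
Ighm-201, secreted: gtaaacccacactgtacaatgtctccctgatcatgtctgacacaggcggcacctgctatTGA
Ighm-202, membrane: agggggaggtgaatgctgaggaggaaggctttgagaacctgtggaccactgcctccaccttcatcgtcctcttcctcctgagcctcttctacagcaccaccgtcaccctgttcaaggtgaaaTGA
The secreted end codes a short hydrophilic tail, and the membrane end codes the transmembrane anchor.

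The libraries held 35828500 to 102866127 estimated reads. Rpl22, the check of the labels, was 148, 235 and 152 CPM (reads scaled to a common, TMM-adjusted library size) in Rpl22+/+ and 58.3, 89.9 and 73.5 CPM in Rpl22-/-, lower in every null library but not absent. Which exons the null allele removes was not examined, so transcript outside the deleted part can still be counted. Transcripts of the gate's antigens were present throughout but lower or overlapping in Rpl22-/-. Itgam, which encodes CD11b, was at 1838 to 2085 CPM in Rpl22+/+ and 815 to 1036 CPM in Rpl22-/-, and Ly6g, of Gr1, was at 149 to 178 and 11.2 to 15.8 CPM. Ly6c2, which the Gr1 antibody can also bind, was at 768 to 1280 and 1186 to 1678 CPM. Rpl22+/+ replicate 2 stood apart from its group: Ptprc, a long transcript, was at 155 CPM there against 1128 and 1054 CPM in replicates 1 and 3. Values without this library are given beside the results it changes.

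The variable segments joined to the constant regions differed between the genotypes. In Rpl22+/+, a single heavy chain variable segment, Ighv1-81, took 58.9%, 58.1% and 60.6% of all reads in heavy chain variable segments. In Rpl22-/- its share was 2.07%, 0.948% and 1.06%. There the leading segments were Ighv14-3, at 10.8%, 10.8% and 10.3%, and Ighv6-3, at 9.47%, 10.4% and 11.7%, and both were under 0.3% in every Rpl22+/+ library. Ighv14-2 was a leading segment in both, at 13.4%, 11.8% and 12.2% in Rpl22+/+ and 7.29%, 8.34% and 8.43% in Rpl22-/-. The Rpl22-/- libraries thus had a broader use of segments, with the 3 leading segments holding 27.6% to 30.4% of the reads against 73.9% to 76.9% in Rpl22+/+.

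Kappa segments showed the same arrangement. Igkv9-120 took 34.3%, 33.6% and 35.6% of kappa variable reads in Rpl22+/+ and 0.154%, 0.110% and 0.0937% in Rpl22-/-. Igkv6-32, the other leading Rpl22+/+ segment, took 30.5%, 27.2% and 29.3% there and under 1% in each null library. Igkv3-5 led in Rpl22-/-, at 25.3%, 23.6% and 23.3%, against 0.364%, 0.330% and 0.403% in Rpl22+/+. Igkv1-117 was fairly common in both, with a highest share of 4.59% in Rpl22+/+ and of 13.6% in Rpl22-/-. Over 112 heavy chain segments, the shares of 2 libraries of the same genotype correlated across segments at r = 0.976 to 1.00, and those of different genotypes at 0.0961 to 0.163. Over 98 kappa segments these ranges were 0.974 to 0.999 and 0.0138 to 0.0313. Segments are not independent replicates, and near-identical segments share reads. Libraries of a genotype therefore held nearly the same mixture of rearranged transcripts, and the genotypes held different mixtures. A difference between genotypes cannot be told apart here from a difference between 2 mixtures of B-lineage cells.

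**Figure D1:**
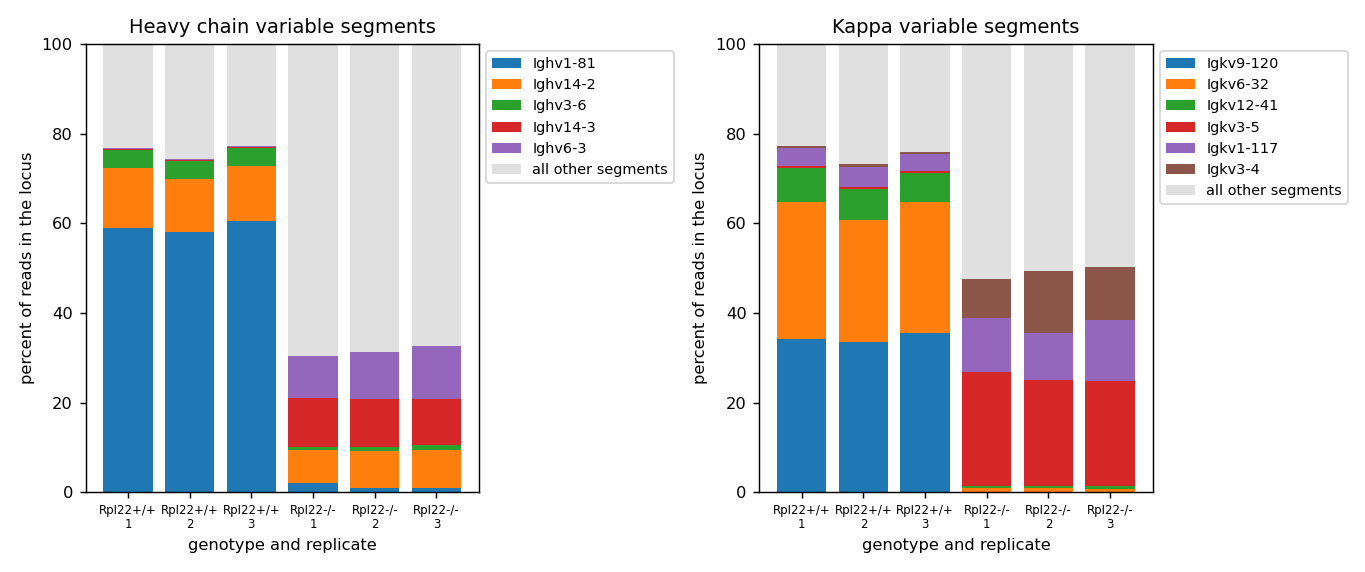
Percent of reads in heavy chain (left) and kappa (right) variable segments taken by the leading segments of each genotype, 1 bar per library, with all other segments in grey. Ighv1-81 fills 58.1% to 60.6% of the Rpl22+/+ bars and at most 2.07% of the Rpl22-/- bars, and bars of a genotype look alike.

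Of the 9 genes, 1 was called: Ighd, lower in Rpl22-/-. A call required both an edgeR adjusted p under 0.05 and a log2 fold change over 1 in size, which 17.5% of all genes tested met, 8.54% lower and 8.93% higher. Pax5 and Cd22 were also lower by the adjusted p alone, making 3 of 9 at any size against 27.6% of all genes. The estimates were negative for 8 of 9, with Ighm the exception, and their median log2 fold change was -0.53 against 0.07 for all genes tested. With no composition factor the median of all genes was 0.19, and none of the 9 estimates changed sign under that or any of the other 14 alternatives. Groups did not overlap in CPM for 5 of 9, Cd22, Ms4a1, Pax5, Ebf1 and Ighd, against 46.1% of all genes, so non-overlap by itself is common in this comparison. In bulk RNA, fewer B cells and less RNA per B cell cannot be told apart.

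**Figure D2:**
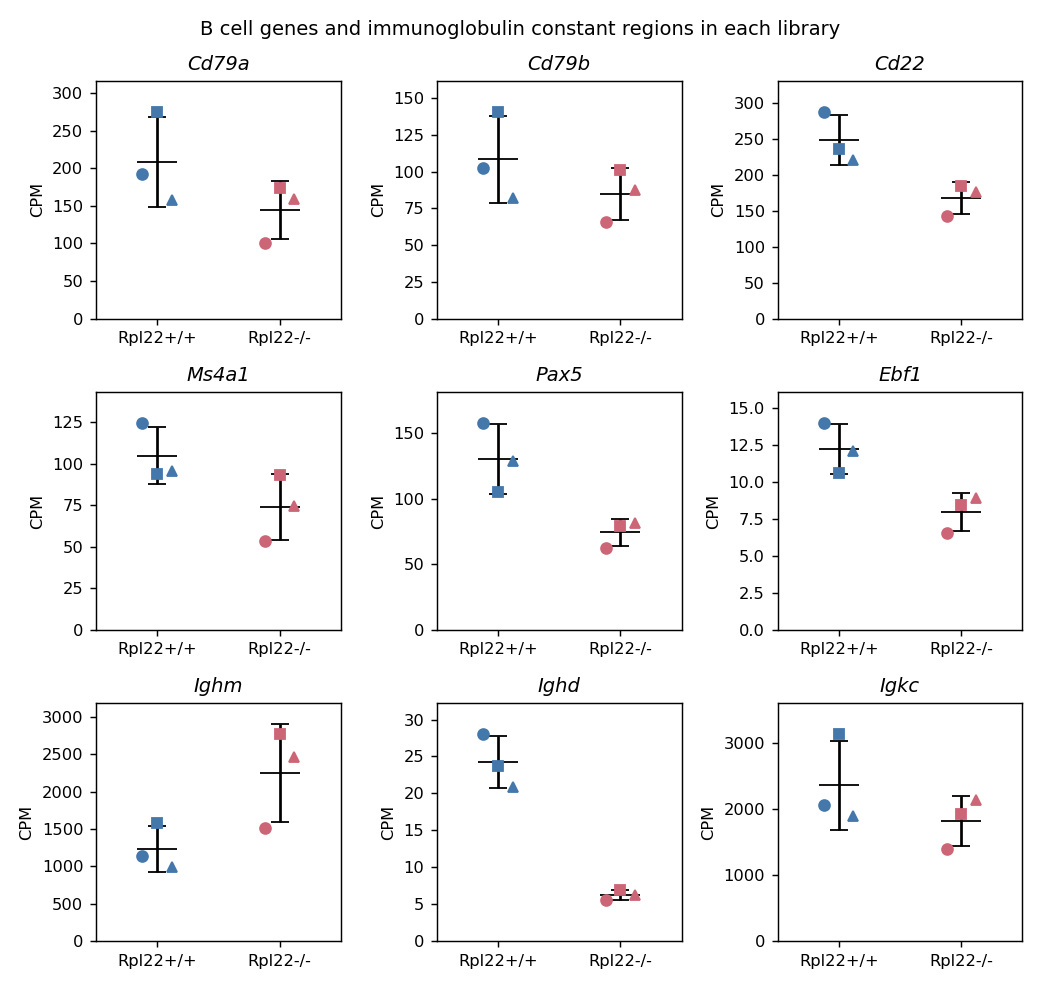
CPM of each of the 9 genes, with circles, squares and triangles for replicates 1, 2 and 3, and bars for the mean and SD of 3 libraries. The groups are widest apart for Ighd (20.9 to 28.0 against 5.51 to 6.91 CPM), and Ighm is the gene with the higher mean in Rpl22-/-.

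On a per-length scale (TPM, transcript abundance scaled for length and library size), Igkc was the most abundant of the 9 in both genotypes, with 7895 ± 995 TPM in Rpl22+/+ and 6481 ± 1277 TPM in Rpl22-/- (SD, n = 3 each). Ighm followed, at 1026 ± 120 and 2114 ± 504 TPM. Cd79a, Cd22 and Cd79b came next, at 190 ± 30.2, 138 ± 31.0 and 123 ± 18.7 TPM in Rpl22+/+, and neighbours among these overlapped. Ms4a1, Pax5, Ighd and Ebf1 were lowest, from 44.2 ± 12.2 down to 3.44 ± 0.839 TPM in Rpl22+/+, where Pax5 overlapped with both Ms4a1 and Ighd. In Rpl22-/- Pax5 (17.7 to 20.2 TPM) overlapped with neither Ms4a1 (25.5 to 38.3 TPM) nor Ighd (5.08 to 5.49 TPM). Igkc and Ighm were thus above Pax5 and Ebf1 in every library, while Ighd was below Pax5 in every library.

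Cd79a and Cd79b encode the paired chains that anchor surface immunoglobulin and carry its signal into the cell. Cd79a (chromosome 7, 24596806 to 24601622, plus strand) was at 192, 275 and 157 CPM in Rpl22+/+ and 100, 173 and 159 CPM in Rpl22-/-. These groups overlapped. Its log2 fold change was -0.53 ± 0.28 (SE, 95% interval -1.20 to 0.14, adjusted p = 0.218, edgeR), so no difference was detected and the interval allows more than a halving. Cd79b (chromosome 11, 106202167 to 106205588, minus strand) was at 103, 141 and 82.2 CPM against 66.0, 101 and 87.9 CPM, also overlapping. Its log2 fold change was -0.35 ± 0.25 (interval -0.94 to 0.24, adjusted p = 0.350, edgeR). Both genes were highest in Rpl22+/+ replicate 2, and without that library the log2 fold changes were -0.32 and -0.16. Both were lowest in Rpl22-/- replicate 1, and without that library the log2 fold changes were -0.32 and -0.20.

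Cd22, an inhibitory lectin of the B cell surface (chromosome 7, 30564827 to 30579767, minus strand), was at 287, 236 and 221 CPM in Rpl22+/+ and 142, 184 and 176 CPM in Rpl22-/-. Every null library was below every control library. The log2 fold change was -0.57 ± 0.17 (adjusted p = 0.0472, edgeR), a 1.48-fold lower level that lay just inside the threshold. With the replicate number as a block it was -0.56 (adjusted p = 0.0586, edgeR), and the adjusted p was over 0.05 in 10 of 15 alternatives, up to 0.149. Those 10 included each fit that left out 1 library, other than Rpl22+/+ replicate 2.

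Ms4a1 encodes CD20, a surface protein of mature B cells (chromosome 19, 11227039 to 11243605, minus strand). It was at 124, 94.0 and 95.7 CPM in Rpl22+/+ and 53.4, 93.1 and 74.4 CPM in Rpl22-/-. The groups were separated by less than 1 CPM, and in TPM they overlapped. Its log2 fold change of -0.51 ± 0.23 did not pass (adjusted p = 0.157, edgeR), and it was -0.32 without Rpl22-/- replicate 1.

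Pax5, the factor that holds cells in the B lineage (chromosome 4, 44524757 to 44710487, minus strand), was at 157, 105 and 129 CPM in Rpl22+/+. In Rpl22-/- it was at 62.2, 79.0 and 81.6 CPM, and the groups did not overlap. The log2 fold change was -0.81 ± 0.20 (interval -1.28 to -0.34, adjusted p = 0.0232, edgeR), a 1.75-fold fall below the size needed for a call. It was largest without Rpl22+/+ replicate 2 (-0.99, adjusted p = 0.00501, edgeR), and the adjusted p was 0.0628 to 0.0846 when any other library was left out.

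Ebf1, which acts with Pax5 and precedes it in development (chromosome 11, 44508144 to 44898918, plus strand), was scarce. It was at 14.0, 10.6 and 12.1 CPM in Rpl22+/+ and 6.55, 8.47 and 8.95 CPM in Rpl22-/-, without overlap in CPM. In TPM the groups overlapped, at 2.47 to 3.99 against 2.35 to 2.65. The log2 fold change of -0.61 ± 0.19 missed the threshold (adjusted p = 0.0516, edgeR), and it passed without Rpl22+/+ replicate 2 (-0.75, adjusted p = 0.0196, edgeR) and in DESeq2 (-0.65, adjusted p = 0.0277). Over the 6 libraries log2 CPM of Ebf1 and Pax5 correlated at r = 0.991, that of Cd79a and Cd79b at 0.980, and that of Pax5 and Cd79b at 0.432, with the genotype difference and Rpl22+/+ replicate 2 shared by all pairs.

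Ighd, the constant region of IgD, had the largest fall of the 9 genes. This gene (ENSMUSG00000104213, chromosome 12, 113370224 to 113379944, minus strand) lies just downstream of Ighm and is expressed with it by alternative splicing in mature naive B cells. It was at 28.0, 23.7 and 20.9 CPM in Rpl22+/+ and 5.51, 6.91 and 6.16 CPM in Rpl22-/-. The lowest control library was thus above 3 times the highest null library. The log2 fold change was -1.97 ± 0.18 (interval -2.38 to -1.55, adjusted p = 0.000523, edgeR), a 3.90-fold lower level, and Ighd was called under all 15 alternatives. Its membrane form, Ighd-202, was at 21.7, 14.4 and 15.5 TPM in Rpl22+/+ and 4.05, 4.85 and 4.72 TPM in Rpl22-/-. The secreted share of Ighd TPM was 8.89%, 5.88% and 13.6% in Rpl22+/+ and 26.4%, 8.25% and 7.21% in Rpl22-/-, so the membrane form was the larger part in every library and the shares overlapped.

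Membrane Ighd was also lower relative to Cd79a and to membrane Ighm. Per TPM of Cd79a, membrane Ighd was 0.110, 0.0663 and 0.0984 in Rpl22+/+ and 0.0381, 0.0303 and 0.0296 in Rpl22-/-. Per TPM of membrane Ighm it was 0.0449, 0.0290 and 0.0378 against 0.0206, 0.0166 and 0.0177. Neither ratio overlapped between genotypes, and no test was run on either.

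Ighm was the only 1 of the 9 genes with a positive estimate. Its gene total was 1136, 1574 and 985 CPM in Rpl22+/+ and 1515, 2768 and 2464 CPM in Rpl22-/-, and these groups overlapped through Rpl22+/+ replicate 2 and Rpl22-/- replicate 1. In TPM they did not overlap, at 894 to 1130 against 1533 to 2444. The log2 fold change was 0.87 ± 0.29 (interval 0.19 to 1.55, adjusted p = 0.0652, edgeR). With the replicate number as a block the adjusted p was 0.0268 (log2 fold change 0.85, edgeR). Ighm was called without Rpl22+/+ replicate 2 (1.05, adjusted p = 0.0281, edgeR) and without Rpl22-/- replicate 1 (1.09, adjusted p = 0.0397, edgeR), which makes 2 called genes of 9 in each.

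The gene total of Ighm covered opposite differences in its forms, whose coding ends are printed above. The secreted form was at 572, 634 and 484 TPM in Rpl22+/+ and 1337, 2152 and 2097 TPM in Rpl22-/-. The membrane form was at 483, 496 and 410 TPM in Rpl22+/+ and 196, 292 and 266 TPM in Rpl22-/-. Means were 3.31 times higher for the secreted form and 1.84 times lower for the membrane form in Rpl22-/-, and neither pair of groups overlapped. The secreted form was thus higher and the membrane form lower in every null library.

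The secreted share of Ighm TPM was 54.2%, 56.1% and 54.1% in Rpl22+/+ and 87.2%, 88.0% and 88.7% in Rpl22-/-, that is 54.8% ± 1.12 against 88.0% ± 0.762 (SD, n = 3 each). The gap between genotypes was far wider than the spread within either (exact permutation test, two-sided, p = 0.10, the smallest that 3 libraries against 3 allow). Only 188 bases of Ighm-201 and 393 of Ighm-202 are not shared, and Salmon divided reads in the shared part by estimate. Per TPM of Cd79a, secreted Ighm was 2.91, 2.93 and 3.07 in Rpl22+/+ and 12.6, 13.4 and 13.2 in Rpl22-/-. The ratio for membrane Ighm was 2.45, 2.29 and 2.61 against 1.85, 1.82 and 1.67.

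**Figure D3:**
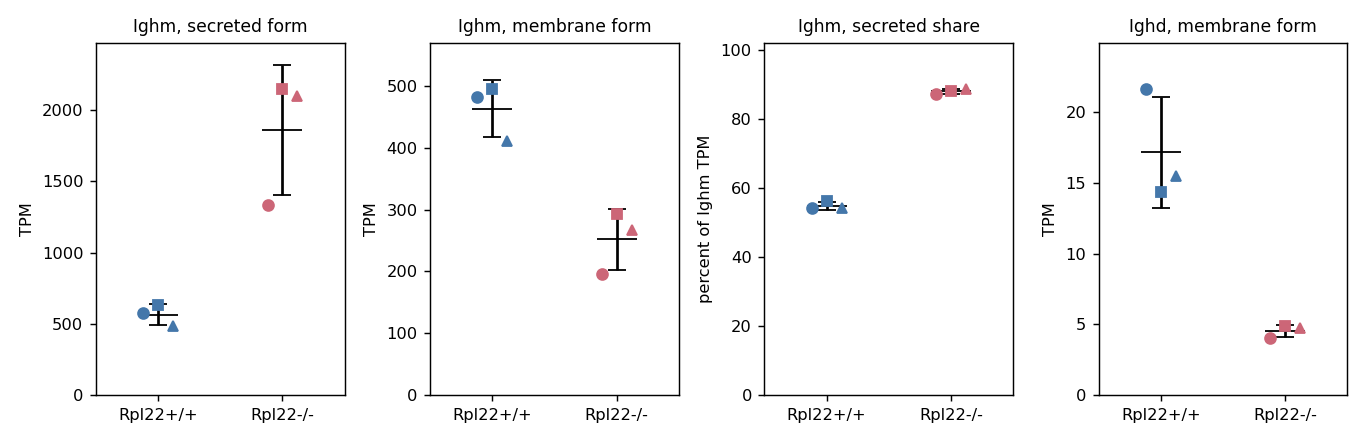
TPM of the secreted and membrane forms of Ighm, the secreted share of Ighm TPM in percent, and TPM of membrane Ighd, with circles, squares and triangles for replicates 1, 2 and 3 and bars for the mean and SD of 3 libraries. Secreted Ighm is higher and the membrane forms of Ighm and Ighd are lower in Rpl22-/-, with no overlap.

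Igkc, the constant region of kappa light chains (chromosome 6, 70703419 to 70703950, plus strand), was at 2062, 3138 and 1895 CPM in Rpl22+/+ and 1394, 1921 and 2138 CPM in Rpl22-/-. The groups overlapped. Its log2 fold change was -0.38 ± 0.26 (interval -1.01 to 0.25, adjusted p = 0.342, edgeR), and it was -0.17 without Rpl22+/+ replicate 2.

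The other constant regions belong to switched heavy chain and lambda light chain classes. Of 9 further constant region genes, 1 was called lower and 1 higher (3 called in all by DESeq2), where 17.5% of all genes were called, and their median log2 fold change was -0.27. Ighg2b, the IgG2b heavy chain, was at 2291, 3611 and 2016 CPM in Rpl22+/+ and 334, 536 and 557 CPM in Rpl22-/-, a difference of -2.47 ± 0.31 on the log2 scale (edgeR, adjusted p = 0.00203). Iglc1, the lambda 1 light chain, was at 20.3, 24.5 and 16.9 CPM in Rpl22+/+ and 110, 147 and 164 CPM in Rpl22-/- (2.77 ± 0.22, adjusted p = 0.000372, edgeR). Both were separated by wide gaps. Reads of Ighg genes, and of the lambda genes, can be divided wrongly between near-identical copies, so these values are less certain than those of the 9 genes.

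The membrane forms of 4 switched heavy chains, Ighg1, Ighg2b, Ighg3 and Igha, went the other way from those of Ighm and Ighd. Membrane Ighg3 was at 4.58, 5.39 and 3.38 TPM in Rpl22+/+ and 14.4, 21.2 and 18.3 TPM in Rpl22-/-. Membrane Igha was at 7.69, 8.94 and 7.94 TPM against 13.2, 19.1 and 17.4 TPM. Those of Ighg1 and Ighg2b were also higher in every null library, by 5.94 and 1.81 times in the means, and that of Ighg2c overlapped. The secreted share of TPM was lower in every null library for Ighg1, Ighg2b, Ighg3 and Igha, with means of 98.8% against 92.6% for Ighg3 and 98.1% against 92.8% for Igha. These differences were not tested, and the secreted form remained the larger part of these 4 genes in every library.

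As shares, Ighm made up 20.1%, 17.5% and 19.9% of the summed TPM of 8 heavy chain constant genes in Rpl22+/+ and 56.1%, 63.1% and 60.9% in Rpl22-/-. Ighg2b went the other way, from 60.5%, 59.8% and 61.2% to 15.9%, 16.4% and 18.3%. IgG2b was thus the main heavy chain transcript of the control libraries and IgM that of the null libraries. The Ighg2b share in Rpl22+/+ lay close to the Ighv1-81 share of heavy chain variable reads, though the first is of TPM and the second of reads. Short reads also do not join a constant region to a variable segment in these data. Among light chains, Iglc1 took 1.22%, 0.974% and 1.12% of the TPM in Rpl22+/+ and 8.86%, 8.61% and 8.74% in Rpl22-/-. Igkc took 96.2%, 97.0% and 96.6% against 88.4%, 88.2% and 88.8%. The shares of Iglc1 and Igkc did not overlap between genotypes, while those of Iglc2 and Iglc3 did, and no test was run on any of them.

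**Figure D4:**
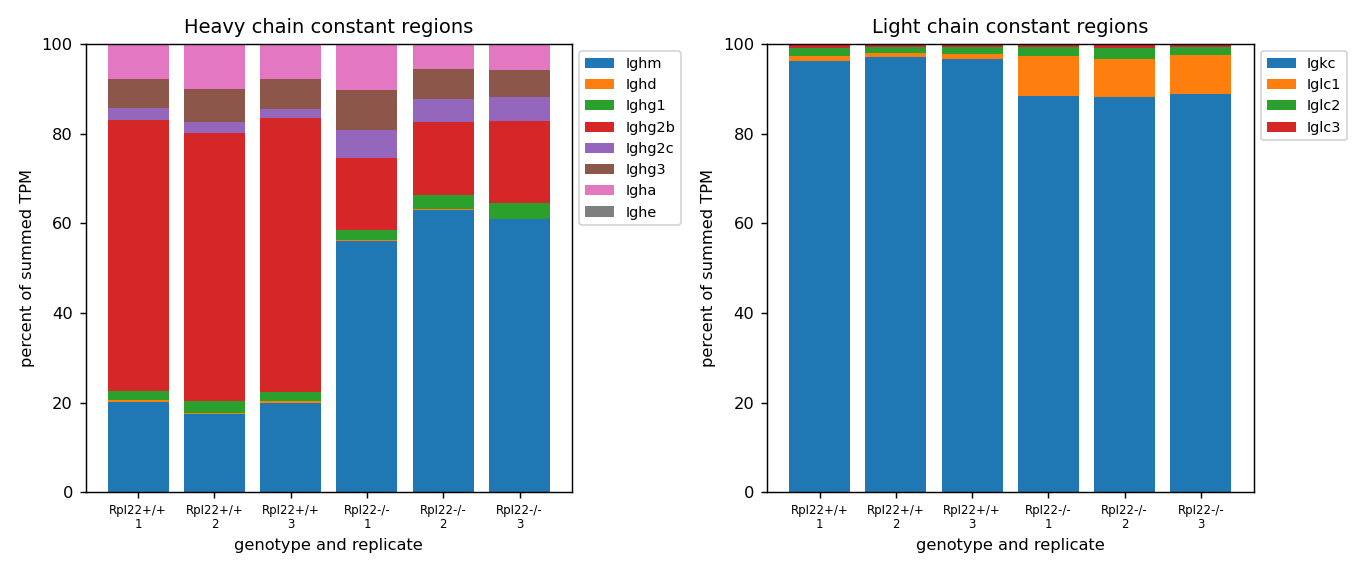
Percent of summed TPM of the 8 heavy chain (left) and 4 light chain (right) constant region genes, 1 bar per library. Ighg2b is the largest heavy chain band in Rpl22+/+ (59.8% to 61.2%) and Ighm in Rpl22-/- (56.1% to 63.1%), and Iglc1 widens from about 1% to between 8.61% and 8.86%.

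**Figure D5:**
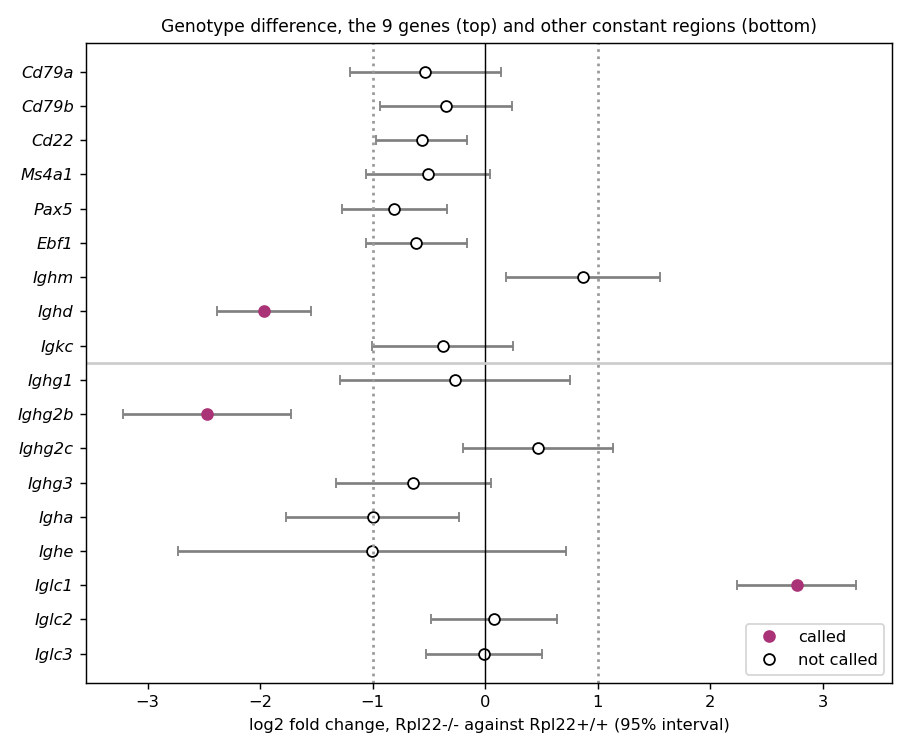
Log2 fold change of Rpl22-/- against Rpl22+/+ with its 95% interval from edgeR for the 9 genes (above the grey line) and 9 further constant regions (below it). Filled points were called, and dotted lines mark a log2 fold change of -1 and 1. Of the called genes Ighd and Ighg2b lie below -1 and Iglc1 above 1, and the uncalled Ighe lies at -1.01 with Igha next to it.

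Around the 9 genes, 6 B-lineage lists with 94 genes were read from the same fit, of which 92 were tested. Of these 3 were called higher and 10 lower, or 14.1% against 17.5% of all genes, and their median log2 fold change was -0.54. The 18 surface receptor genes had 1 call each way. Cr2, complement receptor 2, rose from 1.87, 0.446 and 1.18 CPM to 3.96, 3.12 and 4.84 CPM (1.77, adjusted p = 0.0401, edgeR), and Fcrl1, an Fc receptor-like protein, fell from 7.41 ± 0.806 to 3.31 ± 0.912 CPM (-1.16, adjusted p = 0.0142, edgeR). Of this list 0 genes were called on log2(TPM + 1) or without Rpl22-/- replicate 1, and 1 was called without Rpl22+/+ replicate 1, Rpl22-/- replicate 2 or Rpl22-/- replicate 3.

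Of 22 genes of B cell receptor signaling, 0 were called by edgeR and 4 passed the adjusted p, all 4 lower, where 17.5% and 27.6% of all genes did. All 22 estimates were negative, with a median of -0.55. At an unadjusted p under 0.05 edgeR counted 14 genes, against 39% of all genes, and DESeq2 and limma-voom also called 0. Without Rpl22+/+ replicate 2 edgeR called 3 genes, and without Rpl22+/+ replicate 3 it called 1. By mean CPM over both genotypes its most abundant genes were the phosphatase Ptpn6 and the kinase Syk, which had log2 fold changes of -0.58 (adjusted p = 0.0679) and -0.66 (adjusted p = 0.0270, edgeR). Both are also expressed in myeloid cells. Ptprc, the gene with the highest mean CPM of the list in Rpl22+/+, had -0.94 (adjusted p = 0.350, edgeR).

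Of 18 B-lineage transcription factor genes 1 was called, where 17.5% of all genes were, and 10 passed the adjusted p, where 27.6% of all genes did, all 10 lower. Ets1 fell from 253 ± 18.1 to 106 ± 3.56 CPM (-1.25, adjusted p = 0.000804, edgeR) and is also a T and NK cell factor. The median of this list was -0.62, and 2 or 3 genes were called in 6 of the alternatives, among them 3 genes without Rpl22+/+ replicate 2 and 2 without Rpl22+/+ replicate 3, Rpl22-/- replicate 2 or Rpl22-/- replicate 3.

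The genes of early B cell precursors held calls in both directions. Of 14 such genes 12 were tested, 6 were called lower and 1, Sox4, higher, while 2 were not tested. Among all genes tested, 8.54% were called lower and 8.93% higher. Of the pre-B cell receptor genes tested, Vpreb1 and Vpreb3 had log2 fold changes of 0.72 (adjusted p = 0.265, edgeR) and 0.08 (adjusted p = 0.906, edgeR), and 4 of the 12 estimates were positive. The genes not tested were Vpreb2, with 3 reads over Rpl22+/+ and 0 over Rpl22-/-, and Igll1, with 3 and 9. The calls numbered 8 without Rpl22+/+ replicate 2, but 4 on log2(TPM + 0.1) and 2 on log2(TPM + 1). Dntt, the terminal transferase that adds bases at V(D)J junctions, was at 5.67, 7.21 and 5.22 CPM in Rpl22+/+ and 0.0802, 0.0998 and 0.0378 CPM in Rpl22-/-. It had 1323 reads against 17, a ratio of 79.0 per unit depth (95% counting interval 49.2 to 136). Rag2, part of the recombinase, had 39 reads against 1, a ratio of 39.6 with an interval of 6.70 to 1603, and Arpp21 had 303 against 12, a ratio of 25.6. These 3 and Rag1, which make 4 of the 6 genes called lower, passed the filter on low counts through Rpl22+/+ alone, so they had to differ and their calls are no support. Dntt and Rag2 are shared with T cell precursors, and these levels are low in both genotypes beside Pax5 or Cd79a.

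Plasma cell genes differed in direction. Of 13, 1 was called (2 under the replicate block or in DESeq2), and 3 passed the adjusted p higher and 1 lower, shares near or under those of all genes, with a median log2 fold change of -0.25. Jchain, which joins IgM into polymers for secretion, was at 79.8, 110 and 62.3 CPM in Rpl22+/+ and 119, 158 and 161 CPM in Rpl22-/- (0.80, adjusted p = 0.0485, edgeR). Xbp1, a factor of the secretory program, rose from 182 ± 39.4 to 296 ± 9.87 CPM (0.70, adjusted p = 0.0281, edgeR), and Creld2, a chaperone of the endoplasmic reticulum, by 0.96 (adjusted p = 0.0156, edgeR). Mzb1, a chaperone of antibody assembly, had -1.02 (adjusted p = 0.0751, edgeR). Derl3, of protein export from the endoplasmic reticulum, was the call, and it fell by 1.11 on the log2 scale (adjusted p = 0.0192, edgeR). Xbp1 and Creld2 are also used by myeloid precursors, and Sdc1 and Prdm1, markers of plasma cells, did not pass (adjusted p = 0.177 and 0.438, edgeR).

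Markers of other cells moved with genotype as well, where 8.54% of all genes tested were called lower and 8.93% higher. Of 16 T cell marker genes 12 were called lower, among them Cd3d (-2.70), Trbc1 (-1.80) and Trac (-1.71), and their summed level was 134 to 187 CPM in Rpl22+/+ and 66.7 to 83.9 CPM in Rpl22-/-. Of 9 NK cell genes 4 were higher and none lower, led by Nkg7 (3.00), Ncr1 (2.49) and Gzma (2.38), with sums of 32.6 to 49.9 and 172 to 190 CPM. Nkg7 made up most of the latter, and without it the sums were 17.8 to 24.4 and 23.4 to 35.8 CPM, which overlapped. Of 9 erythroid genes 8 were called higher, led by Hbb-bt (3.41), Hba-a2 (3.29) and Hba-a1 (3.05), with sums of 88.5 to 135 and 618 to 1191 CPM. No gene of any of these lists was at 0 reads in all libraries. The part of these cells in the B cell values was not tested.

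Among dendritic cell genes, 3 of 8 conventional markers, Cd209a (-1.55), Clec10a (-1.18) and Flt3 (-1.06), were called lower. Of all genes tested 17.5% were called, 8.54% lower. Of 8 plasmacytoid markers 0 were called and 0 passed the adjusted p in edgeR, 3 had an unadjusted p under 0.05, DESeq2 called 1 and limma-voom 0. The 2 most abundant, Runx2 and Bst2, were at log2 fold changes of 0.33 and 0.40, while the other 6 estimates were negative and the median of the list was -0.68. Of 12 markers of the sorted myeloid population, 2 were called higher and 4 lower, where 8.93% and 8.54% of all genes were. Ly6g (-3.49), Elane (3.48) and Mpo (2.99), of neutrophil maturity and primary granules, led that list. The 9 genes summed to 3598 to 5596 CPM in Rpl22+/+ and 3345 to 5335 CPM in Rpl22-/-, so their total overlapped between genotypes. Igkc and Ighm made up most of this total in every library, and Ighm had the only positive estimate. The total therefore says little about the other genes.

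Over the 6 libraries the genes most like Cd79a in log2 CPM, of 11637 with a mean of at least 50 counts, were Itpr3 (r = 0.994), H2-Ab1 (0.989), Prmt2 (0.986), Cxcr5 (0.986) and Cacna1s (0.985), and 64 genes were over 0.95. Those most like Ighm were Dlg3 (0.991), Cbarp (0.988), Bcl7c (0.988), Pecam1 (0.987) and Hist1h3f (0.985), with 74 over 0.95. The genotype difference and the offset of Rpl22+/+ replicate 2 are shared by all these points.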

How the data were processed

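RNA of CD11b+Gr1+ splenocytes was sequenced as poly(A)-enriched stranded paired-end libraries. Per the study's methods, the authors used Trimmomatic to trim and Salmon to quantify transcripts. Versions and the transcript set are not given in the sources used here. The authors deposited, per library, estimated counts (which need not be whole) and TPM per transcript. A further deposited table holds the authors' comparison of the genotypes, and only its GRCm39 positions were used.

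Estimated counts were summed to genes with GENCODE vM21 transcript-to-gene pairs (136036 of 276623 transcripts, 98.0% to 98.1% of reads) and rounded. Genotypes were compared with the edgeR 4.0.16 quasi-likelihood test in R 4.3.3 (TMM, filterByExpr, genotype only, Benjamini-Hochberg over all genes tested). All pairs of libraries within a genotype differed by more than sampling noise. Same-numbered libraries deviated together (r = 0.57, 0.71 and 0.13 over 13202 genes), though differently numbered libraries reached 0.43 in 1 pair, so the replicate block is given where it changes a result. The pairing comes from the numbers in the sample titles. The form of an immunoglobulin transcript with more exons was taken as the membrane form. The permutation test was run with scipy, and it and the variable segments were added after values were seen. Intervals on reads are exact binomial and cover counting error only. The tests were checked on simulated data.

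The 9 genes and the lists were chosen with earlier results of these data known, and 1 gene of the rule is not reported here. Named were all 9 genes, from each list up to 3 called genes with the largest change (the 2 most abundant where none was called), the 5 genes most like Cd79a and Ighm, and Rpl22. Other genes (Ptprc, Itgam, Ly6c2, Sox4, Rag1, the Vpreb genes, Igll1, Jchain, Xbp1, Creld2, Mzb1, Sdc1, Prdm1, the uncalled constant regions, the heavy chain forms and the variable segments) were named after their values were seen. Alternatives were DESeq2 size factors, no composition factor, no filter, DESeq2 1.42.0, limma-voom (limma 3.58.1), limma on log2(TPM + 1) or log2(TPM + 0.1), the replicate block, omission of variable, diversity and joining segments, and each library left out.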

Additional observations from a re-analysis of the deposited data

How the results depend on the processing

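None of the 9 estimates changed sign under the 15 alternatives, and Ighd was called in each. Called genes numbered 2911 of all genes, 1 of the 9 and 13 of the 6 B-lineage lists. On log2(TPM + 1) they were 1605, 2 and 6. The call among the 9 also became 2 on log2(TPM + 0.1) and with no composition factor, through Ighm. With each library left out the counts were 2218 to 3431 of all genes, 1 to 2 of the 9 and 10 to 19 of the lists. The replicate block gave 3179, 1 and 14 calls, and beyond Cd22 and Ighm, given beside their results, it changed the side of the adjusted p threshold for no other of the 9; it also moved the plasma cell calls from 1 to 2, as did DESeq2. Cd22 passed it in 5 of 15 alternatives, Pax5 in 7, Ebf1 in 2 and Ighm in 7. With 3 libraries a genotype, exact tests cannot pass 0.05. Heavy chain forms and near-identical Ighg, lambda and variable segments rest on reads that Salmon divided by estimate.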
